A study of Mus musculus with 3 samples.

Results

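The muscle genes described here are Myog, Myod1, Myf5 and Myf6, which encode the 4 myogenic regulatory factors, Mef2a, which encodes a partner transcription factor, and Myh1, Myh3, Acta1, Actc1 and Des, which encode proteins of the contractile apparatus and its scaffold. They were chosen by name from the gene names of the array after Myog had been seen among the highest ratios of the stromal array, so that ratio is part of the choice and is given as a description. They are 10 of 27827 genes, 15 of 41174 probes and 51 of 43379 spots that are not controls. RNA was compared on 3 Agilent mouse arrays of 2 colours, 1 array for each comparison. Stromal RNA came from OP9-DL1 cells, a marrow-derived support line made to express the Notch ligand Dll1 so that progenitors on it take the T cell path, labelled as strain B6-C3Hf1 and grown in MEM. T lineage RNA came from C57BL/6 bone marrow progenitors kept with OP9-DL1 cells, Flt3L and IL7 for 14 or 17 days, and stromal cells were depleted from it by adherence. Each treated culture received phospho-ascorbate (pAsc) at 800 µM, which serves as a stable vitamin C. Exposure was 24 h for the stromal cells and the 14-day culture and 72 h for the 17-day culture, and each was set against an untreated culture of its kind. Untreated RNA was in Cy3 and pAsc RNA in Cy5, and the arrays analysed hold neither a replicate nor a swap of dyes. No p-value can therefore be had, and a dye effect of a single gene cannot be told apart from treatment.

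The myogenic regulatory factors are basic helix-loop-helix proteins that bind the E-box motif as dimers with E proteins, while Id proteins hold E proteins away from DNA. In skeletal muscle, Myf5 and Myod1 act in committed myoblasts, and Myog drives their differentiation into myotubes together with MEF2 factors. Its targets include the muscle myosins, actins, troponins and acetylcholine receptor subunits. Smooth muscle genes and the striated muscle actins are also bound by the serum response factor SRF at CArG boxes, which is why these groups are described side by side.

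Of the 11 stromal markers looked at, 10 were above background in both colours of stromal RNA, all except Thy1, as was 1 of 10 T lineage markers, Cd3e, and a second one, Lck, was so with pAsc only. In T cell RNA all 10 T lineage markers were above background on both arrays, and of the 11 stromal markers 9 were measured at 24 h and 11 at 72 h. The 11 include Thy1, which was not above background in stromal RNA. The labels call the OP9-DL1 cells osteoblast. Of 6 osteoblast markers 5 were measured in stromal RNA, all except Ibsp, and so were all 5 adipocyte markers, 2 of 4 macrophage, 1 of 3 nerve and 0 of 3 endothelial markers. A gene is called measured where a share of 0.5 or more of the spots on its probe was well above background in both colours, which held for 14367 genes in stroma, 17009 in the 24 h and 16315 in the 72 h T cells. Probes of the same gene differed with an SD of 0.18, 0.14 and 0.18 (log2) on the 3 arrays, and repeat spots of a measured probe with a pooled SD of 0.07 on each. The main normalization, loess, sets the ratio of both colours to 0 along brightness. Median centring on all probes in its place moves the median of all measured genes to 0.65, 0.42 and 0.55 (log2). Many ratios near 0 change sign with a median centring, and such values are printed beside the muscle genes and lists they concern.

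Of the 10 genes, 7 were measured in stromal RNA: Acta1, Actc1, Des, Mef2a, Myh3, Myod1 and Myog. Myh1 was above background there with pAsc only, and Myf5 and Myf6 in neither colour. T cells had 4 measured members at each time, namely Acta1, Actc1, Mef2a and Myod1. Of the stromal 7, Myog alone was at least 2-fold higher with pAsc, where 0.432% of all measured genes were, and 0 were at least 2-fold lower, where 0.118% of all were. With the authors' deposited Agilent log ratio Myog and Myh3 were at least 2-fold higher, against 0.947% of all measured genes, and 0 were lower, against 0.78%. In T cells 0 of 4 passed the 2-fold rule in either direction. The shares of all measured genes were 0.312% higher and 0.0118% lower at 24 h, and 0.227% higher and 0.38% lower at 72 h. With the Agilent log ratio 0 of 4 passed as well, where 0.864% of all genes were higher and 0.188% lower at 24 h and 0.711% higher and 1.02% lower at 72 h. Ratios above 0 were found for 6 of 7 members in stroma (53.4% of all measured genes), 4 of 4 at 24 h (54.7%) and 4 of 4 at 72 h (51.0%). Over the members that were measured, and as a description of these only, the medians were 0.26, 0.40 and 0.51, against 0.02, 0.02 and 0.005 over all measured genes. With centring on measured genes in place of loess, 4 of 7, 4 of 4 and 3 of 4 members were above 0, where 50.0% of all measured genes are by construction. Their medians were then 0.17, 0.24 and 0.62.

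**Figure D1:**
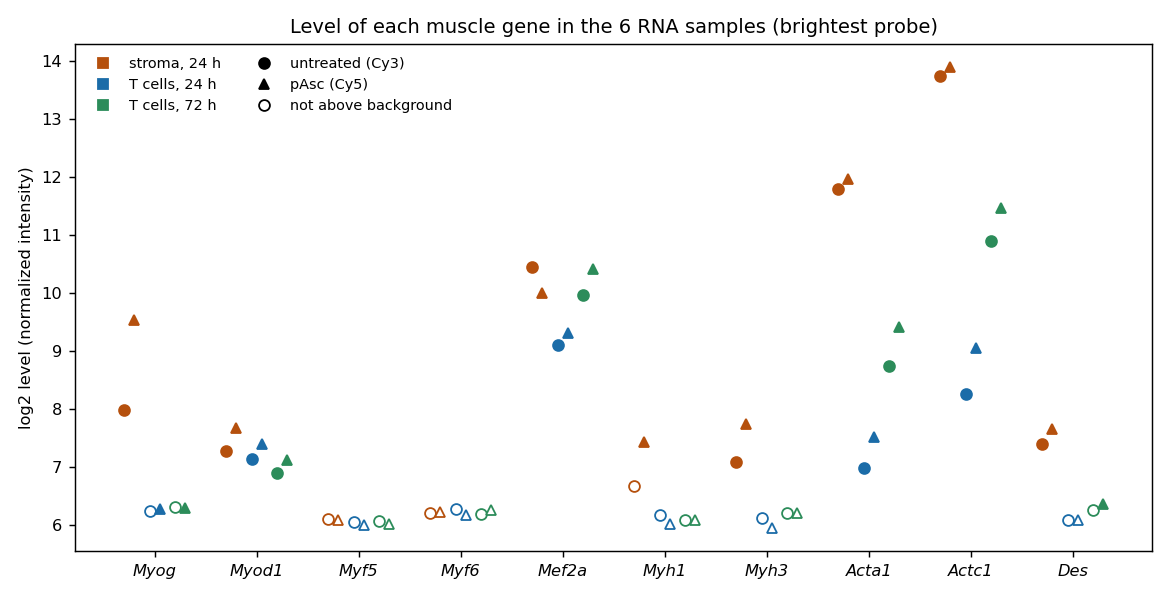
Log2 level (normalized intensity, scaled across arrays) of the brightest probe of each muscle gene in the 6 RNA samples, with circles for untreated Cy3, triangles for pAsc Cy5 and open symbols for signals not above background. Myog stands at 7.97 and 9.53 in stroma and between 6.25 and 6.31 in T cells; heights of different genes are not comparable, since each probe has its own sensitivity.

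Myog, which encodes myogenin, was read by a single probe, at chr1:136188874-136188933 of the mm9 build on the forward strand, spotted 10 times on each array. In untreated stromal cells its mean signal over background was 70.85 intensity units, with spots from 45.64 to 83.72. In treated stromal cells it was 694, with spots from 531 to 826. All 10 spots were above background in both colours. Signals of the 2 dyes have different scales, so a fold is read only after normalization. The normalized log2 level was 7.97 untreated and 9.53 with pAsc, a log2 ratio of 1.56 or 2.94-fold. Repeat spots gave log2 ratios from 1.34 to 1.74 (SD 0.13, n = 10 spots of 1 array), a spread that holds no variation between cultures.

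The size of the Myog ratio moved with the background step, and its direction was the same in all 9 alternatives run. It was 1.96 with normexp and no offset, 2.09 with plain subtraction and 2.15 with the deposited Agilent log ratio, where spots lay between 1.90 and 2.54 (SD 0.17). With loess replaced by median centring it was 1.40 on measured genes and 2.04 on all probes. Among the 14367 measured genes Myog ranked 13 from the top, and 9 with the Agilent log ratio. Just above it stood Zbp1 (1.63) and F13a1 (1.58), and just below it Elmo3 (1.55) and Irf7 (1.53). Its rank was 69 with either median centring.

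In T cells Myog was at or near background. At 24 h the mean signal was 12.58 untreated, with 0 of 10 spots above background, and 28.70 with pAsc, with 6 of 10. At 72 h it was 15.35 and 23.62, with 4 and 5 of 10 spots above background. The log2 ratios there, 0.02 and -0.015, thus compare signals that were not both measured. With levels compared within a dye and scaled across arrays by quantiles, untreated stromal RNA held at least 3.30-fold more Myog signal than untreated 14-day T cell RNA and at least 3.16-fold more than that of the 17-day culture. These bounds depend on the scaling: they are 1.72 and 1.66 on the log2 scale, and 1.19 and 1.18 with loess only. With pAsc, where the T cell signal was close to background, the stromal level was 9.56-fold and 9.39-fold that of the T cells, or 3.26 and 3.23 on the log2 scale. Over the other scalings these values ran from 2.73 to 5.82 and from 2.75 to 5.83. For comparison, 25.3% and 15.4% of genes measured in stroma were at least 2-fold brighter in untreated stroma than in the untreated 14-day and 17-day T cells. In such bulk RNA, fewer cells of a type and less RNA per cell cannot be told apart.

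**Figure D2:**
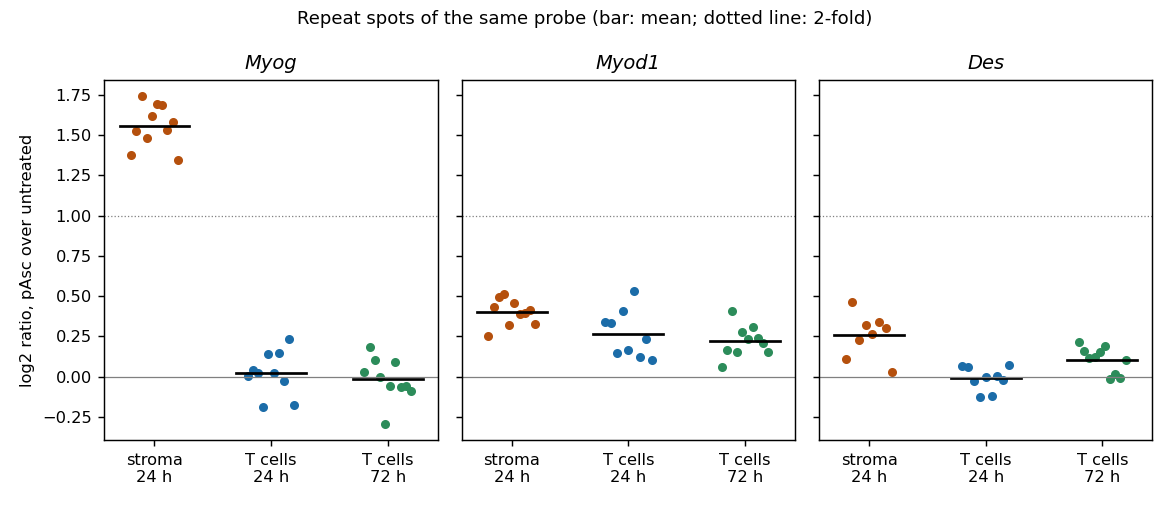
Log2 ratio of pAsc over untreated in each repeat spot of the Myog, Myod1 and Des probes on the 3 arrays, with bars at the mean and a dotted line at 2-fold. All 10 stromal Myog spots lie between 1.34 and 1.74, apart from the T cell spots near 0, where Myog was at or near background, while Myod1 and Des spots lie below 1 on every array.

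The 250 bases before the Myog start site, chr1:134289754-134290003 of GRCm38.p6 on the forward strand, are shown because Myog is the member past 2-fold and its own family binds the E-box. The sequence is from RefSeq, and capitals mark the matches to CANNTG, searched on both strands, where this palindromic motif reads the same.
Myog upstream: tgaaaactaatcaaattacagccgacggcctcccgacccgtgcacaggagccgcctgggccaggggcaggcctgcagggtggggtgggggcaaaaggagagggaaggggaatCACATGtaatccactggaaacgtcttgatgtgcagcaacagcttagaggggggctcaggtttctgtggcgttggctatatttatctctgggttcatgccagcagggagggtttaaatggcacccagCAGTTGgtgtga
The matches, CACATG and CAGTTG, begin 138 and 12 bases before the start. Of 32851 RefSeq upstream windows of the same length, 66.2% held at least 1 such match and 31.8% at least 2. Windows were found for 8 of the 10 genes, and Myod1 and Myf6 were not matched. Acta1 and Des held 2 matches each, Myh3 held 1, and those of Myf5, Mef2a, Myh1 and Actc1 held 0. A match to the MEF2 consensus searched was found in the window of Myh1 only, against 2.92% of all windows. One to the CArG box was found in those of Acta1 and Actc1, against 1.47%. A window without a match, that of Myog included, can still hold a site that departs from the consensus searched. These matches describe letters in a window and no site was measured on these arrays.

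Myod1, the factor of committed myoblasts, was measured on all 3 arrays, in T cells as well as in stroma. Its probe lies at chr7:53633956-53634015 of mm9 on the forward strand. In stroma its mean signal was 30.61 untreated and 121 with pAsc, and in T cells 63.39 and 213 for 24 h and 44.84 and 132 for 72 h. All 10 spots, or 9 of 9 at 24 h after 1 flagged spot was left out, were above background in both colours. The log2 ratios were 0.40 (SD 0.08, n = 10 spots), 0.27 (SD 0.15, n = 9 spots) and 0.22 (SD 0.10, n = 10 spots) for the stromal, 24 h and 72 h arrays. All were under 2-fold, and with centring on measured genes they were -0.06, 0.01 and -0.21, so the direction turned in stroma and at 72 h.

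The order of the Myod1 levels ran from stroma with pAsc (7.67), T cells with pAsc at 24 h (7.40), untreated stroma (7.27) and untreated 14-day T cells (7.13) to the 17-day T cells with pAsc (7.12) and without (6.90). Neighbours in that order differed by at most 0.28, with no replicate to set a spread between cultures. With levels scaled across arrays, untreated stroma was 1.11-fold and 1.30-fold the untreated T cells, unlike the bounds given above for Myog. Before normalization and scaling its mean signal, 30.61, was below those of the T cells, 63.39 and 44.84. The folds and the order above thus rest on these steps, and the order also sets the 2 dyes side by side. The Myod1 and Myog probes were rich in T, at 53.3% and 50% of bases, and whether either picks up other RNA was not tested.

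Myf5, the earliest of the 4 factors in the embryo, and Myf6, the factor of mature fibres also called MRF4, were above background in 0 spots of either colour on every array. Myf5 was read by 9, 6 and 8 usable spots on the stromal, 24 h and 72 h arrays, at mean signals from 2.44 to 7.64. Myf6 was read by 1 spot, at signals from 6.02 to 20.45. These arrays thus set no value for either gene, and a low level in any sample cannot be seen here.

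Mef2a encodes a MADS-box factor that works with the myogenic factors and is found in many tissues. Its brightest probe, at chr7:74376573-74376632 of mm9 on the reverse strand, read 661 untreated and 1179 with pAsc in stroma. In the T cells it read 344 and 1012 on the 24 h array and 685 and 2456 on the 72 h array. Mef2a was the member lower in treated stroma, at a log2 ratio of -0.44, while T cells stood at 0.21 and 0.46. The other 2 probes were at -0.30 and -0.13 in stroma, 0.05 and 0.02 at 24 h and 0.39 and 0.24 at 72 h, so all 3 probes were below 0 in stroma and above 0 in T cells. The stromal value turned to 0.28 with centring on all probes, where the median of all measured genes was 0.65, and stayed negative in the other 8 alternatives. In untreated cells, with levels scaled across arrays, the stromal level was 2.54-fold that of the 14-day and 1.40-fold that of the 17-day T cells. The second fold rests on normalization and scaling, since the signals before them were 661 in stroma and 685 in the 17-day cells.

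Myh3 encodes the embryonic myosin heavy chain, a motor protein of newly formed muscle fibres. Its 2 probes overlap, so they are not independent readings of the RNA. Their sequences, from the deposited files, are printed for that reason with the shared 32 bases in capitals.
Myh3 A_52_P247953: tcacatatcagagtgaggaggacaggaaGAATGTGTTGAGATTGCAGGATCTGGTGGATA
Myh3 A_51_P167668: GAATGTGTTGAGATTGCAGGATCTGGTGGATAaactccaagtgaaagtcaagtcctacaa
The first aligns to chr11:66914684-66914888 and the second to chr11:66914857-66914916 of mm9, both on the forward strand, and 145 bases of the first span are not in the probe. The second was above background in both colours in stroma, at 20.82 untreated and 129 with pAsc, and the first with pAsc only, at 6.18 and 77.82. The log2 ratio of the measured probe was 0.64, or 1.56-fold, and the other was at least 1.57-fold higher with pAsc. Neither was above background in T cells. The ratio of the measured probe differed widely with the background step, at 1.19 with no offset, 1.501 with plain subtraction and 2.18 with the deposited Agilent log ratio. With centring on measured genes in place of loess it was 0.17. The bound of the other probe holds after loess only, and none was computed with centring.

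Myh1, the myosin heavy chain of fast adult fibres, gave a like pattern at lower signals. Its probe at chr11:67037938-67037997 read 6.39 untreated and 95.11 with pAsc in stroma, above background with pAsc only, and was at least 1.70-fold higher. The probe at chr11:67022830-67023932, which spans 1043 bases not in the probe, read 8.26 and 24.24, at least 1.07-fold higher. The remaining probe, at chr11:67038002-67038061, lies on the reverse strand, opposite to the gene, and was not above background on any array. In T cells the only signal above background was that of the second probe with pAsc at 24 h, 33.10 against 12.69 untreated, at least 1.05-fold higher. These bounds hold after loess only, and none was computed with median centring. Myosin heavy chain genes resemble each other closely, and binding of a relative's RNA to these probes was not tested.

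Acta1 and Actc1 encode the actins of skeletal and cardiac muscle, and both were bright in stroma, where their ratio after loess was small. Each was read by 1 probe on the reverse strand, at chr8:126416197-126416256 for Acta1 and chr2:113874011-113874934 for Actc1 in mm9. Actin genes are close relatives in coding sequence, so the probes are printed from the deposited files.
Acta1 A_51_P246854: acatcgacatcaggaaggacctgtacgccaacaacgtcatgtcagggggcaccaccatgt
Actc1 A_51_P149469: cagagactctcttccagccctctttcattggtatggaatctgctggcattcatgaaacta
Binding of another actin RNA to them was not tested. Acta1 read 1969.5 untreated and 5973 with pAsc in stroma, 51.53 and 234 in the 24 h T cells, and 282 and 1192 in those at 72 h. Actc1 read 8246 and 28231 in stroma, 178 and 842 at 24 h, and 1270.3 and 5026 at 72 h. After normalization the stromal ratios of Acta1 and Actc1 were 0.17 and 0.15, smaller than the SD between probes of a gene. They were 0.42 and 0.61 with centring on measured genes and 1.06 and 1.26, past 2-fold, with centring on all probes.

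In T cells the same genes were higher with pAsc, under 2-fold. Acta1 had log2 ratios of 0.53 at 24 h and 0.67 at 72 h, and Actc1 of 0.78 and 0.57. All 4 values kept their direction in the 9 alternatives, with Acta1 between 0.27 and 1.24 and Actc1 between 0.57 and 1.28 over both times. After loess the ratio was larger than in stroma by 0.36 and 0.50 for Acta1 and by 0.63 and 0.42 for Actc1, differences that were not tested for want of replicates. The 24 h direction turned with centring on all probes, to -0.37 for Acta1 and -0.09 for Actc1, and for Acta1 with centring on measured genes, to -0.14. At 72 h the differences with centring were 0.18 and 0.27 for Acta1 and 0.03 and 0.12 for Actc1, on all probes and on measured genes. Genes of like brightness had median ratios from -0.002 to 0.053 on the T cell arrays.

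The level of both actins in T cell RNA was low beside stroma and differed between the cultures. Untreated stroma had 28.1-fold the Acta1 level of untreated 14-day T cells and 8.24-fold that of 17-day cells. For Actc1 the folds were 44.4 and 7.22. The 17-day culture was thus above the 14-day one by 3.41-fold untreated and 3.75-fold with pAsc for Acta1, and by 6.16-fold and 5.32-fold for Actc1. The 2 cultures differ in age and in length of exposure, which cannot be told apart in the treated samples.

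After loess, stromal markers had ratios mostly above 0 in T cell RNA, as both actins did. Of the stromal list, 9 of 9 measured markers had ratios above 0 at 24 h (median 0.74, 3 at least 2-fold higher) and 10 of 11 at 72 h (median 0.40, 1 at least 2-fold higher), against 6 of 10 in stroma itself (median 0.16, 1 at least 2-fold higher). The 11 at 72 h include Thy1, which was not measured in stroma. Over the 9 markers above background there, untreated 14-day T cell RNA held from 5.38% to 52.0% of the stromal level, with a median of 20.5%, and Dll1 was not above background. Over all 10 markers measured in stroma, 17-day RNA held from 30.6% to 111% with a median of 57.3%. Acta1 stood at 3.56% and 12.1% and Actc1 at 2.25% and 13.9% of their stromal levels. With pAsc the marker medians were 26.5% and 82.0%, Acta1 stood at 4.58% and 17.2%, and Actc1 at 3.48% and 18.6%. The part of stromal RNA in the actin values of T cells was not tested.

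Des encodes desmin, the intermediate filament of muscle cells, read by a probe at chr1:75363404-75363629 of mm9 on the forward strand. In stroma its signal was 37.03 untreated (28.69 to 45.97) and 117 with pAsc (94.53 to 143), above background in all 8 usable spots. The log2 ratio was 0.26 (SD 0.14, range 0.03 to 0.47, n = 8 spots of 1 array), and 0.51 with the Agilent log ratio, but -0.19 with centring on measured genes. At 24 h T cells gave no signal above background. At 72 h they did so with pAsc only, in 8 of 10 spots, with a signal of 12.79 untreated and 28.18 treated, at least 1.08-fold higher.

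Further genes of muscle were taken from lists chosen with earlier results of these data known. Across all 7 lists, 54, 61 and 54 of 92 genes were measured in stroma, T cells at 24 h and T cells at 72 h. At least 2-fold higher were 1, 0 and 2 of them, where 0.432%, 0.312% and 0.227% of all measured genes were. At least 2-fold lower were 0 on each array, against 0.118%, 0.0118% and 0.38%.

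**Figure D3:**
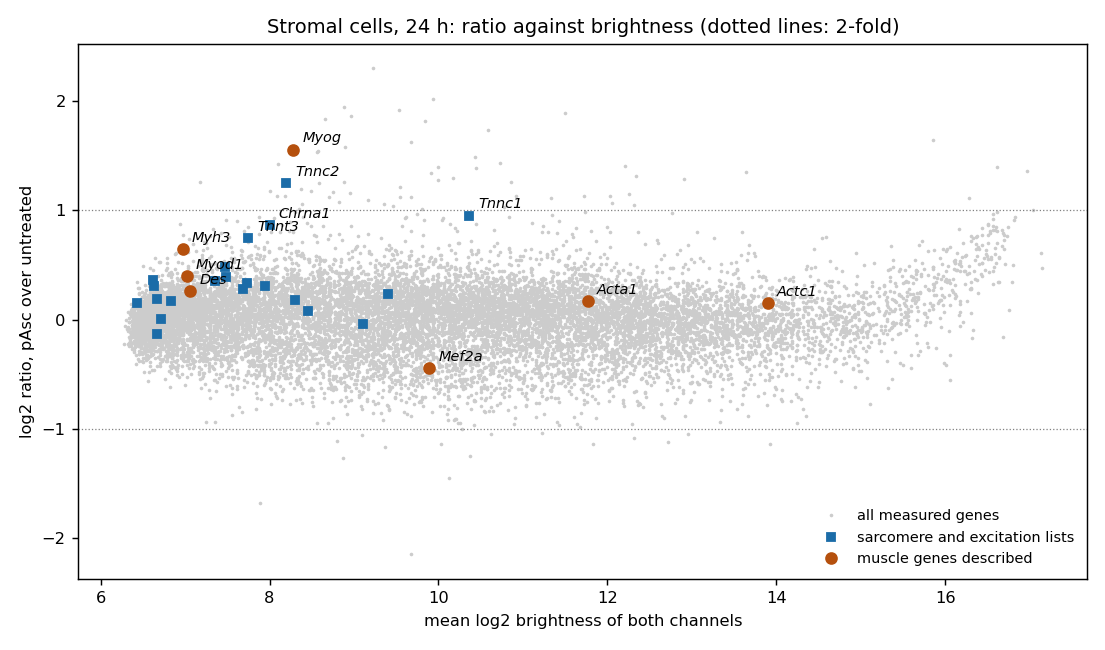
Log2 ratio of pAsc over untreated in stroma after loess against the mean log2 brightness of both colours for the 14367 measured genes (grey), the measured genes of the sarcomere and excitation lists (blue squares) and the 7 measured muscle genes (orange circles), with dotted lines at 2-fold. Myog at 1.56 and Tnnc2 at 1.25 lie above the upper line, and Mef2a at -0.44 lies below 0; with median centring in place of loess Myod1, Des or Mef2a change sign.

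Sarcomere genes other than the members were mostly above 0 in treated stroma after loess, 14 of 15 measured with a median log2 ratio of 0.33, against 53.4% and 0.02 over all measured genes. With median centring on measured genes in place of loess, 7 of 15 were above 0 and the median was -0.001, so this shift of the list rests on the normalization along brightness. The list passed the 2-fold rule through Tnnc2, troponin C of fast skeletal muscle, which read 77.8 untreated and 570 with pAsc. Its log2 ratio was 1.25, or 2.37-fold, and 1.07 to 1.72 over the alternatives, against 0.03 and 0.15 in T cells, which turned to -0.40 and -0.34 with centring on measured genes. Tnnc1, troponin C of slow and cardiac muscle, read 545.6 and 2780.3, a ratio of 0.95, with 0.22 and 0.55 in T cells. It was at or above 0.95 in stroma in all 9 alternatives, and at 24 h it turned to -0.31 with centring on measured genes. Of the other genes of the list that were brightest over the 3 arrays together, the light chain Myl4 stood at 0.24, the fast light chain Mylpf at 0.35 and the slow troponin T gene Tnnt1 at -0.04 in stroma, with Mylpf at -0.01 when centred on measured genes. In T cells 11 of 17 and 12 of 16 measured sarcomere genes were above 0, with medians of 0.04 and 0.13 that turned to -0.31 and -0.34 with centring on measured genes.

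Genes of muscle excitation were dim. Chrna1, the alpha subunit of the muscle acetylcholine receptor and a known Myog target, read 78.3 untreated and 409 with pAsc in stroma, a log2 ratio of 0.86 that ranged from 0.65 to 1.30 over the alternatives. In T cells it was above background with pAsc only. Chrne, the adult epsilon subunit, stood at 0.31, the calcium release channel Ryr1 at 0.18 and the calcium pump Atp2a1 at 0.17 in stroma, the last turning to -0.35 with centring on measured genes. Over the 6 measured genes the median was 0.24, which turned to -0.14 with centring on measured genes. In T cells the medians were -0.003 and -0.03 over 8 and 4 measured genes. With centring on all probes they were 0.09 and 0.19, below the medians of 0.42 and 0.55 over all measured genes. With centring on measured genes they were -0.34 and -0.37.

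Detection describes the dim genes in another way, from the same spots of the same arrays, so it is not an independent reading. Of 13 sarcomere genes not above background in untreated stroma 5 were so with pAsc, or 38.5%, and of 16 excitation genes 7, or 43.8%, against 8.51% of 13340 genes in all. None of the 28 sarcomere or 22 excitation genes was above background in untreated stroma only, as 120 of 27827 genes in all were. With so few such genes on the whole array, their absence from lists of this length was not read as a difference. The 5 were Myh7, Myh8, Myoz1, Tnni1 and Tnnt2, and the 7 were Cacna1s, Cacng1, Cav3, Chrnb1, Chrnd, Chrng and Hspb7, all named here after their values were seen. Most stood barely above background, with treated signals from 21.2 to 50.5 units. Not all of these genes were particular to treated stroma. On the 24 h T cell array Myh7, Tnni1, Cacna1s, Cacng1, Chrnb1 and Hspb7 were above background in both colours. Their untreated signals there ran from 16.7 for Myh7 to 62.6 for Chrnb1. Myh8, Myoz1, Tnnt2, Cav3, Chrnd and Chrng were above background in neither colour there or on the 72 h array. Bounds were at least 1.31-fold higher for Cacng1, a calcium channel subunit, and at least 1.29-fold for both Tnnt2, the cardiac troponin T, and Myh8, the perinatal myosin. For Chrng, the fetal receptor subunit, the bound was 1.096-fold, and Cacna1s and Chrnd had none. In T cells the shares of these lists were 18.2% and 7.14% at 24 h, against 15.4% of all genes, and 16.7% for both at 72 h, against 8.7%. Cy5 lit more genes than Cy3 on every array, and without a dye swap that cannot be told apart from treatment.

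**Figure D4:**
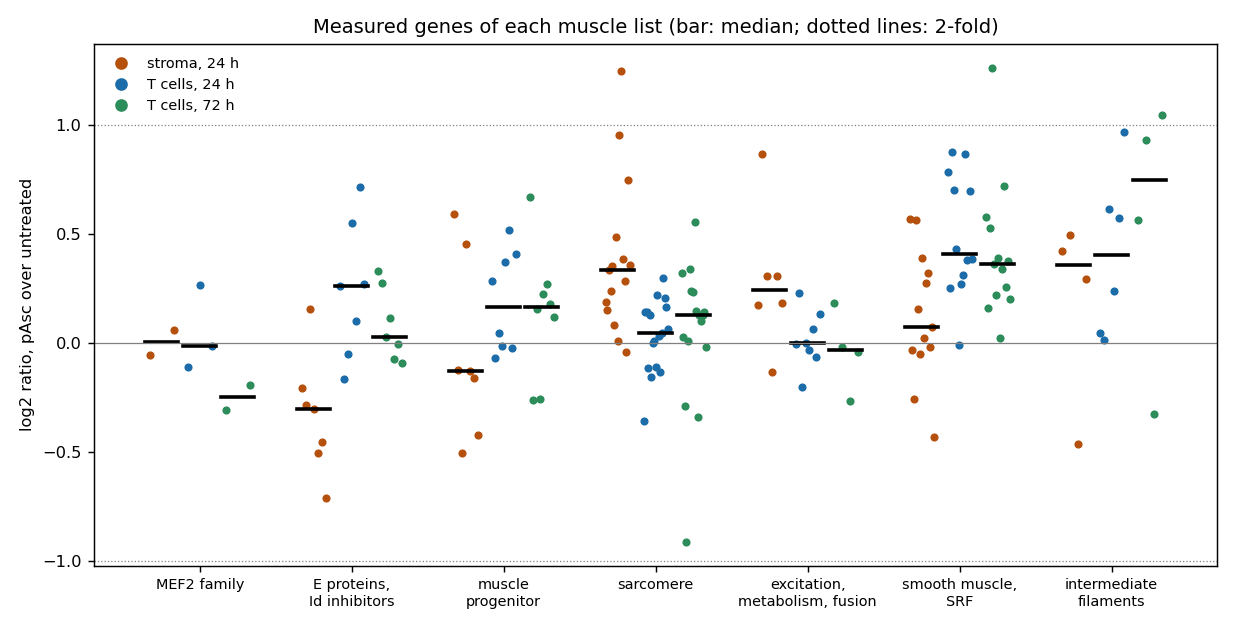
Log2 ratio after loess of each measured gene of the 7 lists on the 3 arrays, with bars at the median and dotted lines at 2-fold. Sarcomere genes sit around 0.33 in stroma and near 0 in T cells, and smooth muscle genes around 0.07 in stroma and 0.41 and 0.36 in T cells. When the 3 arrays are centred on measured genes, the sarcomere medians become -0.001, -0.31 and -0.34. The smooth muscle medians then become 0.48, 0.49 and 0.55.

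The dimer partners of the myogenic factors were all measured. In stroma 1 of 7 genes of E proteins and Id inhibitors was above 0, with a median of -0.30 that became -0.06 with centring on measured genes and 0.59 with centring on all probes. Tcf3, which encodes E12 and E47, stood at -0.46 in stroma and 0.72 and -0.004 in T cells. Tcf12, or HEB, stood at -0.50, 0.10 and -0.08, and the inhibitors Id2 and Id3 at -0.28 and 0.15 in stroma. Centred on all probes, the negative values among these turned positive, with Tcf3 at 0.71 and 0.82 in stroma and at 72 h, Tcf12 at 0.44 and 0.83, and Id2 at 0.59. The medians of all measured genes were then 0.65 in stroma and 0.55 at 72 h. Other MEF2 genes were within 2-fold after loess, with Mef2d at 0.06, -0.01 and -0.19 on the 3 arrays, the last 2 turning to 0.32 and 0.14 with centring on measured genes, and Mef2c not above background in stroma.

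Regulators of muscle progenitors had no shared direction in stroma, where 2 of 7 measured were above 0 with a median of -0.13. With centring on all probes 4 of 7 were above 0 with a median of 0.48. There 90.9% of all measured genes were above 0 and their median was 0.65. With centring on measured genes the list stood at 2 of 7 and -0.17. Cdh15, or M-cadherin of myoblasts, was the highest of them at 0.59, with 0.28 and 0.67 in T cells, the first turning to -0.03 with centring on measured genes, and stayed at or above 0.59 in stroma in all 9 alternatives. The receptor gene Met stood at -0.13, or 0.48 with centring on all probes. Pax7, the factor of muscle stem cells, was above background in stroma with pAsc only, with a bound of 1.04-fold, and Pax3 in neither colour; both were picked after their values were seen.

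Smooth muscle genes, like the striated actins, were higher with pAsc in T cells. Of them 11 of 12 at 24 h and 13 of 13 at 72 h were above 0, with medians of 0.41 and 0.36, or 0.49 and 0.55 with centring on measured genes. Only Cnn1, calponin of smooth muscle, was at least 2-fold higher, at 1.26 at 72 h, with 0.70 at 24 h and 0.57 in stroma. Acta2, the smooth muscle actin, stood at 0.79 and 0.58 in T cells for its brightest probe, while its measured probes ran from 0.02 to 0.87 at 24 h and from 0.05 to 0.75 at 72 h. Tagln stood at 0.87 and 0.72, Tpm1 at 0.38 and 0.26 and the SRF cofactor gene Mkl1 at -0.01 and 0.22, the first turning to 0.15 with centring on measured genes. In stroma 8 of 13 were above 0 with a median of 0.07, or 11 of 13 and 0.48 with centring on measured genes. The stromal markers, given above with the actins, were mostly above 0 in T cells after loess, and their part in these values was not tested.

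Among other intermediate filaments Vim, vimentin of mesenchymal cells, was at least 2-fold higher at 72 h in its brightest probe (1.04), while its other measured probe stood at -0.14. Genes as bright as Vim, above a mean log2 brightness of 16, had a median of 0.31 on that array after loess, and the deposited Agilent log ratio of Vim was 0.82. Nes, nestin, stood at 0.49 in stroma and at 0.24 and 0.93 in T cells, where the first was -0.005 with centring on measured genes. Lmna, the lamin A gene, stood at 0.42, 0.61 and 0.56 on the 3 arrays.

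The genes whose levels over the 6 samples were most like those of Myog were sought by the Euclidean distance between log2 levels centred on each gene's mean, over 14366 genes measured in stroma. The nearest were Klhl30 (distance 0.50), Fam164c (0.61), Chrna1 (0.63), Tnnc2 (0.75) and Xaf1 (0.80). Their stromal log2 ratios were 1.099, 0.94, 0.86, 1.25 and 1.39. Xaf1, an interferon-responsive gene, stood at log2 levels from 8.65 to 9.09 in T cells, where Myog was at or near background. The 6 values of a gene come in pairs from 3 arrays, so this likeness is a description.

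**Figure D5:**
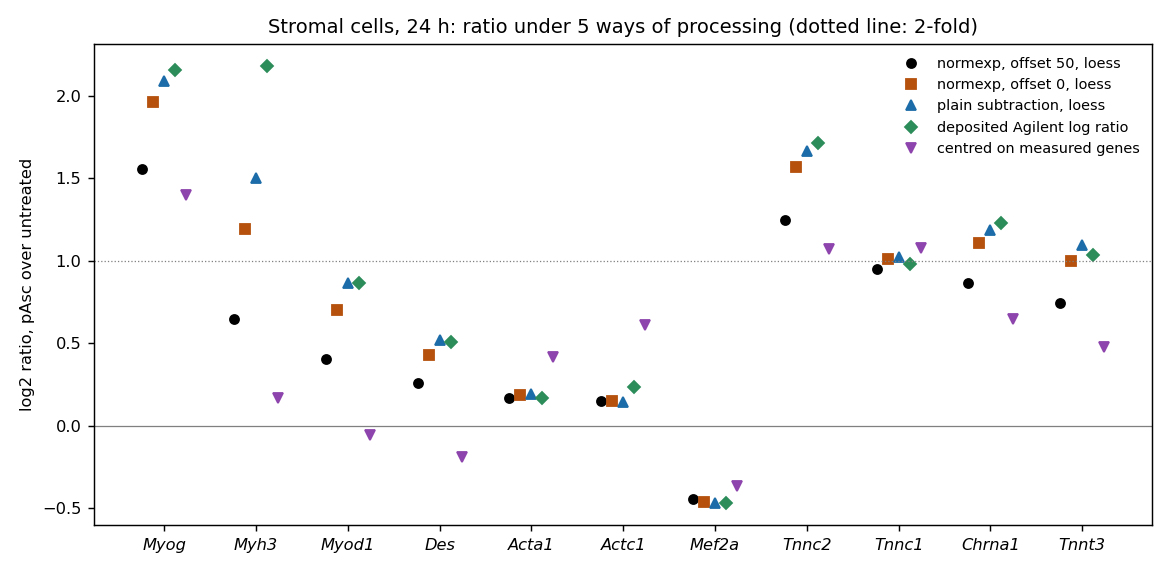
Stromal log2 ratio of pAsc over untreated for the 7 measured muscle genes and 4 further genes under 5 ways of processing, with a dotted line at 2-fold. Myog and Tnnc2 stay above the line in all 5, Myh3 runs from 0.17 to 2.18, and Myod1 and Des fall below 0 when arrays are centred on measured genes.

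Tnnt3, the fast troponin T shown in the same plot and chosen after its value was seen, read 63.9 untreated and 310.1 with pAsc in stroma. Both of its probes were measured, at log2 ratios of 0.74 and 0.79, and the gene ran from 0.48 to 1.12 over the alternatives, against 0.16 and 0.14 in T cells, which turned to -0.45 and -0.34 with centring on measured genes. With the deposited Agilent log ratio Tnnc2, Chrna1 and Tnnt3 were the 3 listed genes at least 2-fold higher in stroma and 0 were lower.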

How the data were processed

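Per the file headers, the authors extracted intensity values for each spot with Agilent Feature Extraction 10.5.1.1, and the columns used are the mean signal and the local background median of each colour, not yet normalized. They also deposited a log10 ratio of Cy5 over Cy3 made, per the file headers, after subtracting background and normalizing the dyes within each array; it was turned to log2 and used as an alternative. Flags for spots well above background and outliers are other columns, deposited by the authors. RNA was amplified from oligo dT, per the labels' protocols.

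With limma 3.58.1 in R 4.3.3, background was corrected by normexp (offset 50) and each array normalized by loess (span 0.3), with control and outlier spots at weight 0. The offset shrinks ratios of dim genes. Spots of a probe were averaged, a gene was represented by its brightest probe, and gene names are those in the files. Levels were scaled across arrays by Aquantile. A gene above background in 1 colour was given as a bound, computed against its dim signal or, if higher, the lowest one above background. Such bounds of pAsc over untreated hold after loess only and are open to dye bias. Only 1 array per comparison limits precision, so a 2-fold rule stood in for a test.

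Named were all members and every probe, list genes past 2-fold and at most 4 others by brightness per list, the 5 genes most like Myog and its 2 neighbours on each side in rank; genes outside that rule are marked in the text. Members and lists were chosen with earlier results of these data known. The 9 alternatives changed the background correction, normalization, filter, choice of probe and flagged spots. The steps were tested on simulated data, with changes set only on brighter spots well above background in both colours. That test does not cover dim genes such as Myod1, Des and Myh3 in stroma. Upstream sequences are from RefSeq (GRCm38.p6), positions of probes from the files (mm9), and exon or UTR status was not assigned. Tables were made with Python 3.11.15, pandas 2.3.3 and numpy 2.4.6.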

Additional observations from a re-analysis of the deposited data

Results flagged for a closer look

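The Mef2a ratio had opposite signs in stroma and in T cells. It was -0.44 in stroma and 0.21 in T cells at 24 h, a difference of -0.65 (log2), and 0.46 at 72 h, a difference of -0.90. With 1 array on each side the difference was not tested. All 3 Mef2a probes had these signs, and the stromal sign turned with median centring on all probes. Among all genes measured on both arrays, 5.86% had a difference as low as that of Mef2a against 24 h and 1.0% against 72 h.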

How the results depend on the processing

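No paired analysis was possible because each comparison is 1 array with no replicate. Of 156 summary values under alternatives, 48 moved beyond the SD between probes of a gene or, for counts, beyond 1.5 times, and none of the 156 was a called value that changed sign. In stroma the median of the members was 0.52 with plain subtraction, 0.51 with the Agilent log ratio and 0.82 with centring on all probes. Members at least 2-fold higher were 2 with an offset of 0, plain subtraction or the Agilent log ratio and 3 with centring on all probes. Listed genes at least 2-fold higher were 3 with an offset of 0, 5 with plain subtraction, 3 with the Agilent log ratio, 19 with centring on all probes and 5 with centring on measured genes. Among these alternatives the share of all measured genes is given only for the Agilent log ratio. There 0.947%, 0.864% and 0.711% were higher on the stromal, 24 h and 72 h arrays. Centring on all probes moved the median of all measured genes to 0.65, 0.42 and 0.55, with 90.9%, 82.1% and 84.2% above 0. Counts under that setting, here and below, cannot be read as particular to muscle genes. Myog was at 1.96 with an offset of 0, 2.09 with plain subtraction, 2.15 with the Agilent log ratio and 2.04 with centring on all probes. In T cells at 24 h the median of the members was 0.55 with an offset of 0, 0.59 with plain subtraction, 0.60 with the Agilent log ratio, 0.67 with centring on all probes, 0.24 with centring on measured genes and 0.006 with no filter. With centring on all probes 1 member was at least 2-fold higher. Listed genes at least 2-fold higher were 1 with an offset of 0 or plain subtraction, 2 with the Agilent log ratio, 7 with centring on all probes and 2 on measured genes. At 72 h the median of the members was 1.18 with centring on all probes and 0.09 with no filter, and 3 members were at least 2-fold higher with centring on all probes. Listed genes at least 2-fold higher were 3 with an offset of 0 or the Agilent log ratio, 4 with plain subtraction, 15 with centring on all probes, 5 on measured genes and 1 with the median over probes, and 1 was at least 2-fold lower with the Agilent log ratio. Myog in untreated stroma over 14-day T cells (1.72, log2) was 1.19 with loess only, 4.13 with the processed signal and 2.86 with an offset of 0, and over 17-day cells (1.66) 1.18, 3.87 and 2.68. With pAsc these were 3.26 against 2.73, 5.82 and 4.72, and 3.23 against 2.75, 5.83 and 4.64. Except where a filter or an offset acts on dim signals by construction, the cause was not tested. Dim signal limits Myf5, Myf6, Myh1, Myh3 and Myog in T cells.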
